A study of Mus musculus with 32 samples.

Results

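Mouse epidermal organoids grown for 7 days without passaging were compared with and without a TGF-beta inhibitor. The comparison holds 5 of the 32 RNA libraries of the series, chosen by their labels: 2 libraries with the inhibitor and 3 without it. The inhibitor group was grown with forskolin and the inhibitor (1 library) or with the inhibitor and no forskolin (1 library). The group without the inhibitor was grown with forskolin (1 library), with forskolin and Fgf10 (1 library), or with forskolin and Fgf1 (1 library). All 5 came from skin of mice labelled Bl/6, at passage 0. Ages, the name and dose of the inhibitor, and whether the libraries came from separate cultures or animals are not given in the labels. Each medium has 1 library, so each p-value of the unpassaged comparison sets the inhibitor difference against the spread between media within a group, which may be technical in part. All Fgf-supplied libraries lie in the group without the inhibitor and the only library with no forskolin lies in the inhibitor group, so the library with forskolin alone and the library with forskolin and the inhibitor are the only pair whose labels differ by the inhibitor and nothing else.

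TGF-beta ligands are secreted in a latent form, are released by integrins and proteases, and bind a pair of serine/threonine kinase receptors. The receptors phosphorylate SMAD2 and SMAD3, which enter the nucleus with SMAD4 and switch on matrix, adhesion and feedback genes. In the epidermis the pathway is known for restraining keratinocyte division and for raising matrix and migration genes during wound repair. Forskolin raises cyclic AMP, and Fgf1 and Fgf10 act on receptor tyrosine kinases of epithelial cells.

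RNA was measured by CEL-seq2, which counts reads from the 3′ end of each transcript. The library with forskolin and the inhibitor held 2076360 counts and the library with the inhibitor alone 2226115. The libraries without it held 1633941 counts with forskolin, 1375714 with Fgf10 and 1028720 with Fgf1, so the inhibitor group was the more deeply read. Between 11283 and 12577 of the 14946 listed genes had at least 1 count. Levels are given as CPM, counts scaled to a fixed library total that TMM scaling has adjusted for a few abundant genes, and "higher" or "lower" is used of genes with an adjusted p under 0.05 in edgeR's quasi-likelihood test over 8657 genes.

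Of those 8657 genes, 620 passed (7.16%), 231 of them higher with the inhibitor (2.67%) and 389 lower (4.49%), and the median log2 fold change over all genes tested was -0.003. Counts of higher and lower genes in the lists below are to be read beside these shares of 2.67% and 4.49%. Before adjustment, 2134 genes were at p under 0.05. The CPM of both groups did not overlap for 3638 genes (42%). Leaving out 1 library moved the count of 620 to 313 without forskolin plus inhibitor, to 264 without the inhibitor alone and to 147 without forskolin plus Fgf1, the shallowest library, and 146 of those 147 were among the 620. With the spread estimated over these and 10 early libraries together (the shared spread, below), 118 genes passed, 115 of them among the 620. Set against the library with forskolin alone, the inhibitor libraries gave 482 genes, 302 of them among the 620. In that fit the spread comes from the 2 inhibitor libraries alone, which differ in forskolin, and the lone forskolin library is assumed to vary like them, so its calls are not a check of the 620. The 2 inhibitor libraries differed more than 4-fold for 29 genes, pairs without the inhibitor for 30 to 92 genes, and pairs across the groups for 182 to 271 genes.

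**Figure D1:**
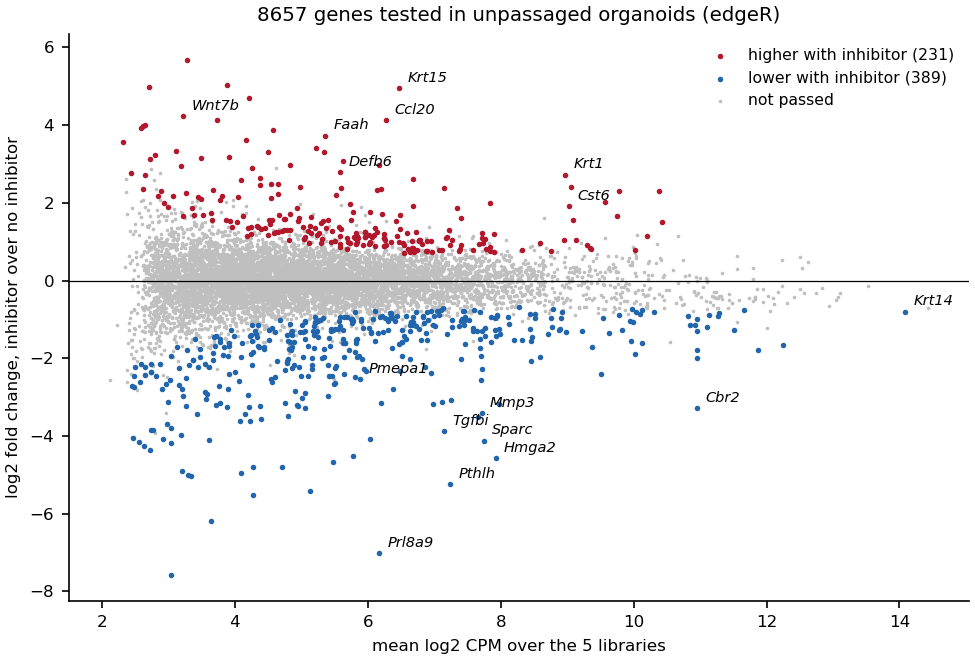
Log2 fold change of the inhibitor libraries over the libraries without it (vertical) against mean log2 CPM (horizontal) for 8657 genes, 1 point a gene. The 231 higher genes are red, the 389 lower genes are blue and genes that did not pass are grey, with Krt15 high on the upper side and Prl8a9, Pthlh and Hmga2 far down on the lower side.

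The markers of the comparison were read first. Tgfbi (chr13:56609523-56639562, GRCm38, plus strand), which encodes a secreted matrix protein named for its induction by TGF-beta, had 17.6 CPM with forskolin and the inhibitor and 13.5 CPM with the inhibitor alone, against 178 CPM with forskolin, 274 CPM with Fgf10 and 235 CPM with Fgf1. Both inhibitor libraries lay far below all 3 others, a mean of 15.6 ± 2.90 CPM (SD, n = 2) against 229 ± 47.8 CPM (SD, n = 3), and the log2 fold change was -3.87 (SE 0.28, edgeR adjusted p = 0.000258). Krt14 (chr11:100203162-100207548, minus strand), the type I keratin of basal keratinocytes, had 11750 and 12250 CPM with the inhibitor, against 20320 to 21610 CPM without it. Its fall was small, with a log2 fold change of -0.80 (SE 0.19, adjusted p = 0.0339), and did not pass without either inhibitor library or without the Fgf1 library (adjusted p up to 0.201 over the libraries left out). Cd34 (chr1:194938819-194961279, plus strand), a surface marker of hair follicle bulge cells, had 15.4 CPM with forskolin and the inhibitor and 30.4 CPM with the inhibitor alone, against 31.6, 28.7 and 70.6 CPM with forskolin, Fgf10 and Fgf1. The groups overlapped and Cd34 did not pass (log2 fold change -0.89 with SE 0.43, adjusted p = 0.241). It passed only with no filter on low counts. Krt14 and Krt5, the paired basal keratins, were also present in whole follicles of mixed phase. There, without TMM scaling, Krt14 had 3131 to 5614 CPM and Krt5 had 3757 to 7057 CPM. The presence of these genes thus marks keratinocytes but does not tell epidermis from follicle. Anagen follicles and sorted epidermis of the series were not read here. In whole follicles of mixed phase from the same series, without TMM scaling, Cd34 had 3.61 to 5.97 CPM in 3 libraries.

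Of 15 ligand and latency genes, 9 were abundant enough to be tested. Of these, 4 were lower (44.4%, beside 4.49% of all genes tested), none was higher and 5 did not pass. Their median log2 fold change was -2.0. Tgfb3, 1 of the TGF-beta ligands, had 1.36 and 3.38 CPM with the inhibitor, against 9.22, 25.7 and 32.7 CPM with forskolin, Fgf10 and Fgf1, a log2 fold change of -3.15 (SE 0.64, adjusted p = 0.0191). The groups did not overlap, although the forskolin library was much nearer to the inhibitor libraries than the Fgf libraries were. Inhbb, a subunit of activins, which also signal through SMAD2 and SMAD3, showed the same order, with 9.94 and 18.6 CPM against 27.7, 71.0 and 76.7 CPM (log2 fold change -2.0, adjusted p = 0.0301). Ltbp1 and Ltbp4, which bind latent TGF-beta to the matrix, had log2 fold changes of -2.23 and -2.22 (adjusted p = 0.017 and 0.0443). Tgfb1 had 0 counts in all 5 libraries, which allows up to 1.35 to 2.92 CPM, and Tgfb2 was too low to test, with at most 1.69 CPM. Itgav and Itgb6, the integrin chains that release latent TGF-beta, did not pass (log2 fold changes -0.79 and 0.77, adjusted p = 0.105 and 0.24).

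Tgfbr1 and Tgfbr2 encode the kinase receptors, Tgfbr3 a co-receptor and Acvr2a a receptor of activins. None of these 4 tested receptor genes passed in edgeR, with log2 fold changes of -1.06, -0.23, -0.27 and 0.27 and adjusted p from 0.14 to 0.781, and no receptor gene passed in DESeq2 either. Tgfbr1 had 9.03 and 7.60 CPM with the inhibitor, against 10.5, 21.9 and 20.5 CPM, so that the forskolin library lay close to the inhibitor libraries, and without that library it passed (log2 fold change -1.35). Of 11 SMAD and cofactor genes, 3 were lower (27.3%, beside 4.49% of all genes tested) and 8 did not pass. Smad3, which carries the signal to DNA, had 19.9 and 19.4 CPM with the inhibitor, against 38.2 to 58.2 CPM without it (log2 fold change -1.32 with SE 0.27, adjusted p = 0.0191), whereas Smad4, its partner, had a log2 fold change of -0.34 (adjusted p = 0.479).

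Feedback genes, which SMADs switch on and which limit the signal, were lower in 3 of 6 tested cases. Pmepa1 (chr2:173224458-173276533, minus strand), whose protein keeps SMADs from the receptor, had 15.4 and 15.6 CPM with the inhibitor, against 75.1, 89.2 and 107 CPM with forskolin, Fgf10 and Fgf1. All 3 libraries without the inhibitor lay well above both with it, and the log2 fold change was -2.53 (SE 0.25, adjusted p = 0.00109). Skil and Tgif1, SMAD co-repressors, each had a log2 fold change of -1.50 (adjusted p = 0.0376 and 0.0301). Smad7, the inhibitory SMAD, had 2.71 and 4.64 CPM against 7.16 to 17.8 CPM and did not pass (log2 fold change -1.67 with SE 0.52, adjusted p = 0.0861), nor did Smurf2 (adjusted p = 0.132). Smad7 passed only with no filter on low counts. Tsc22d1, a transcription regulator known for its response to TGF-beta, went the other way, with 79.95 and 98.4 CPM against 41.5 to 50.6 CPM (log2 fold change 0.95, adjusted p = 0.0254). Without the Fgf1 library Pmepa1 passed and the other feedback genes did not, and no ligand or SMAD gene passed in edgeR, while 5 ligand and 4 SMAD genes were lower at p under 0.05 before adjustment. With the shared spread 1 feedback gene was lower and no ligand or SMAD gene passed in edgeR, with 6 ligand and 4 SMAD genes lower before adjustment. Without the forskolin plus inhibitor library no ligand or SMAD gene passed either, with 5 and 3 lower before adjustment. On all 5 libraries DESeq2 gave 4 lower ligand and latency genes and 2 lower SMAD and cofactor genes.

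**Figure D2:**
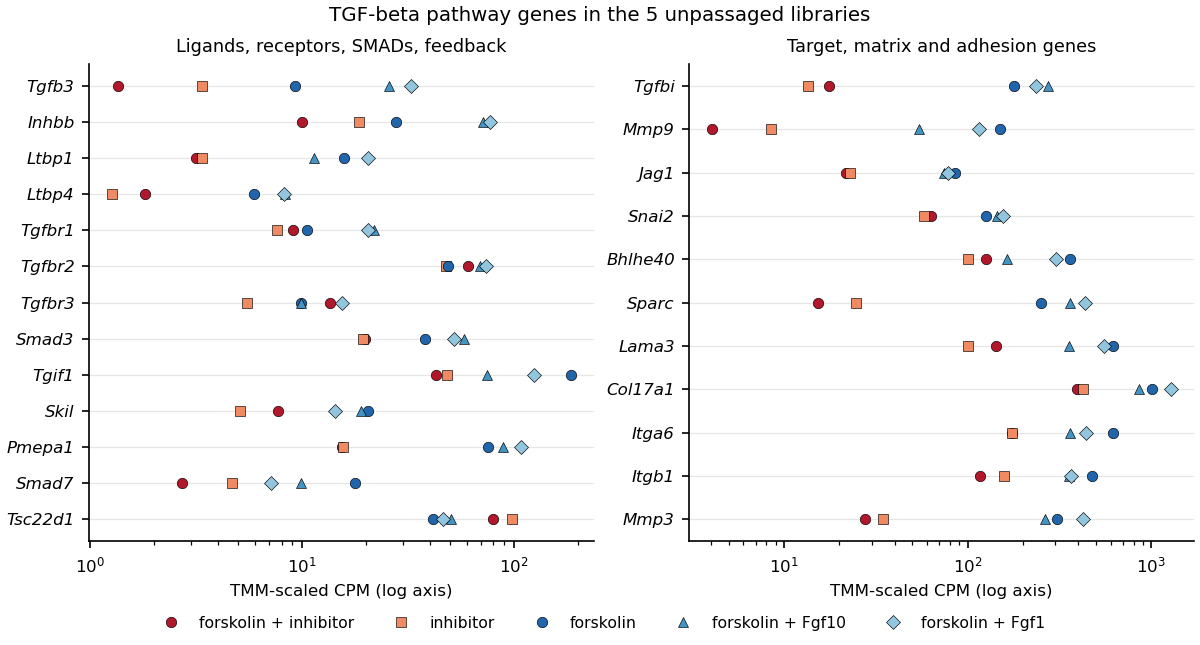
CPM on a log axis of pathway genes (left) and target, matrix and adhesion genes (right), 1 point for each of the 5 unpassaged libraries, red and orange with the inhibitor and blue without it. The receptors Tgfbr2 and Tgfbr3 overlap between groups, whereas Tgfbi, Pmepa1 and Sparc stand apart.

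Known TGF-beta target genes were lower in 12 of 26 tested cases (46.2%) and higher in none, and the median log2 fold change of the list was -1.26. Jag1, a Notch ligand, had 21.7 and 22.8 CPM against 74.1 to 85.6 CPM, with little spread within either group (log2 fold change -1.83 with SE 0.22, adjusted p = 0.00225). Snai2, a repressor of epithelial genes, had 62.8 and 57.4 CPM against 127 to 157 CPM (log2 fold change -1.24, adjusted p = 0.00737), while its target Cdh1, the gene of E-cadherin, did not pass (log2 fold change 0.21, adjusted p = 0.622). Bhlhe40, a clock-linked repressor, Tnc, a matrix glycoprotein of wounds, and Pdgfb, a growth factor, were also lower, with log2 fold changes of -1.29, -1.79 and -2.17. Cdkn1a, the p21 cell cycle inhibitor, did not pass: the forskolin library had 1925 CPM and the Fgf libraries 672 and 920 CPM, around the 607 and 696 CPM of the inhibitor libraries (log2 fold change -0.85, adjusted p = 0.212). It passed with no filter on low counts (log2 fold change -0.82) and against forskolin alone (-1.56). Without the Fgf1 library 6 target genes were lower, and with the shared spread 6 were.

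The promoter stretches below show the DNA just before the start of 4 target genes that fell. They are the lower target or feedback genes with the largest falls that have an entry in the RefSeq promoter table (GRCm38.p6) with at least 100 bases in a row that no GENCODE exon covers. Capitals mark CAGAC, the core of the SMAD binding element, which reads GTCTG on the other strand, and TGANTCA, the AP-1 motif. The stretches are chr13:56609336-56609522 (plus strand) for Tgfbi, chr9:7272264-7272513 (plus strand) for Mmp13, chr2:137116645-137116770 (minus strand) for Jag1 and chr4:64047016-64047265 (minus strand) for Tnc.
Tgfbi: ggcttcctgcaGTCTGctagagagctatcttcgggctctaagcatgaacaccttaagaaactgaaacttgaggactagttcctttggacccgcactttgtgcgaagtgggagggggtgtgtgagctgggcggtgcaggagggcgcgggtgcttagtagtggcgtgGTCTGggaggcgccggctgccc
Mmp13: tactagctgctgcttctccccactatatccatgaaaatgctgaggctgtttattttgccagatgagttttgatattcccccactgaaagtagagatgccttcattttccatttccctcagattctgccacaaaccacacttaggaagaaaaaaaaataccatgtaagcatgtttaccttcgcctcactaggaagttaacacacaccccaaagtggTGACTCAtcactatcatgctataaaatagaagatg
Jag1: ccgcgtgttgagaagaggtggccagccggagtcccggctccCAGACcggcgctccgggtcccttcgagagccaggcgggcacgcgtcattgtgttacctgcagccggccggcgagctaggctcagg
Tnc: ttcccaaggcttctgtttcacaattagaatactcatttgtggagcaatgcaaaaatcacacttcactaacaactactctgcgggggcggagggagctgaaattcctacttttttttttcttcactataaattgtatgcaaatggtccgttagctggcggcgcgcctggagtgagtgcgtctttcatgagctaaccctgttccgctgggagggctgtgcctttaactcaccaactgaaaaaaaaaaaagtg
The Tgfbi stretch held 2 CAGAC matches, that of Jag1 1, that of Mmp13 1 AP-1 match, and that of Tnc none of these letters, with no overlap between matches. Both strands of windows of 300 bases, from 250 before to 50 after the start, were then searched. CAGAC occurred in 50.7% of the 296 windows of lower genes and 48.7% of the 191 windows of higher genes, beside 46.3% of the 6670 windows of genes tested, each gene by its first window, and 49.6% of all 32851 windows. TGANTCA occurred in 6.42% of windows of lower genes and 11% of windows of higher genes, beside 5.11% for genes tested and 7.81% of all windows. None of these shares was tested.

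Genes of the extracellular matrix and basement membrane were lower in 11 of 18 tested cases (61.1%) and higher in none, with a median log2 fold change of -1.55. Sparc (chr11:55394500-55423183, minus strand), a collagen-binding matrix protein, had 15.4 and 24.5 CPM with the inhibitor, against 250, 358 and 438 CPM with forskolin, Fgf10 and Fgf1 (log2 fold change -4.12 with SE 0.33, adjusted p = 0.000509). The lowest library without the inhibitor lay far above the highest with it. Lama3 and Lamb3, laminin chains that anchor keratinocytes to the basement membrane, were lower, with log2 fold changes of -2.07 and -1.58 (adjusted p = 0.0046 and 0.0257). Lama3 had 142 and 100.5 CPM with the inhibitor, against 617 CPM with forskolin, 355 CPM with Fgf10 and 550 CPM with Fgf1. Lamb1, a chain of other laminins, had 2.26 and 0.844 CPM against 29.7 to 59.3 CPM (log2 fold change -4.79, adjusted p = 0.00136). Col4a1 and Col4a2, collagen IV chains of the basement membrane, had 3 and 10 counts over both inhibitor libraries, against 39 and 102 counts over the others. For Col4a1 the depth-adjusted ratio of the libraries without the inhibitor to those with it was 15.6 (exact 95% interval 4.96 to 78.9, counting error only). Col7a1, Col17a1, Col18a1 and Fbln2 were lower as well. Without the Fgf1 library 6 genes of this list were lower, without the forskolin plus inhibitor library 7 were, and with the shared spread 3 were.

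Hemidesmosome and integrin genes were lower in 6 of 11 tested cases (54.5%, beside 4.49% of all genes tested) and higher in none. Itga6 and Itgb4, the chains of the hemidesmosome integrin, had log2 fold changes of -1.45 (SE 0.25, adjusted p = 0.0102) and -1.30 (SE 0.20, adjusted p = 0.00699). Itga6 had 174 CPM in both inhibitor libraries, against 620 CPM with forskolin, 361 CPM with Fgf10 and 441 CPM with Fgf1. Itga3 and Itgb1, which form a laminin receptor, fell by 1.26 and 1.54 on the log2 scale, Cd151, their tetraspanin partner, by 0.78 and Col17a1, the hemidesmosome collagen, by 1.36. The count of 6 became 2 without the library with the inhibitor alone, 3 without either the forskolin plus inhibitor library or the Fgf1 library, and 1 with the shared spread. Actin and contractility genes, another group that TGF-beta is known to raise in stromal cells, gave 1 lower gene of 17, Cald1 (log2 fold change -1.04, adjusted p = 0.0194), a share of 5.88% beside 4.49% over all genes.

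Of 11 tested genes of secreted proteases and the plasminogen system, 5 were lower (45.5%) and 1 was higher (9.09%). Of all genes tested, 4.49% were lower and 2.67% higher. Mmp3, stromelysin-1, had 27.6 and 34.6 CPM with the inhibitor, against 308, 264 and 426 CPM with forskolin, Fgf10 and Fgf1 (log2 fold change -3.41 with SE 0.28, adjusted p = 0.000509). Mmp9, a gelatinase of migrating keratinocytes, had 4.07 and 8.44 CPM against 54.4 to 150 CPM (log2 fold change -4.07 with SE 0.50, adjusted p = 0.00231). Mmp13, a collagenase, fell by 2.45 on the log2 scale, and Mmp10 had 2 counts over both inhibitor libraries against 65 counts over the others, a ratio of 39.0 (exact 95% interval 10.4 to 329). Serpinb2, a serpin of keratinocytes, rose, with 124 and 147 CPM against 35.6 to 57.4 CPM (log2 fold change 1.53, adjusted p = 0.00625).

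**Figure D3:**
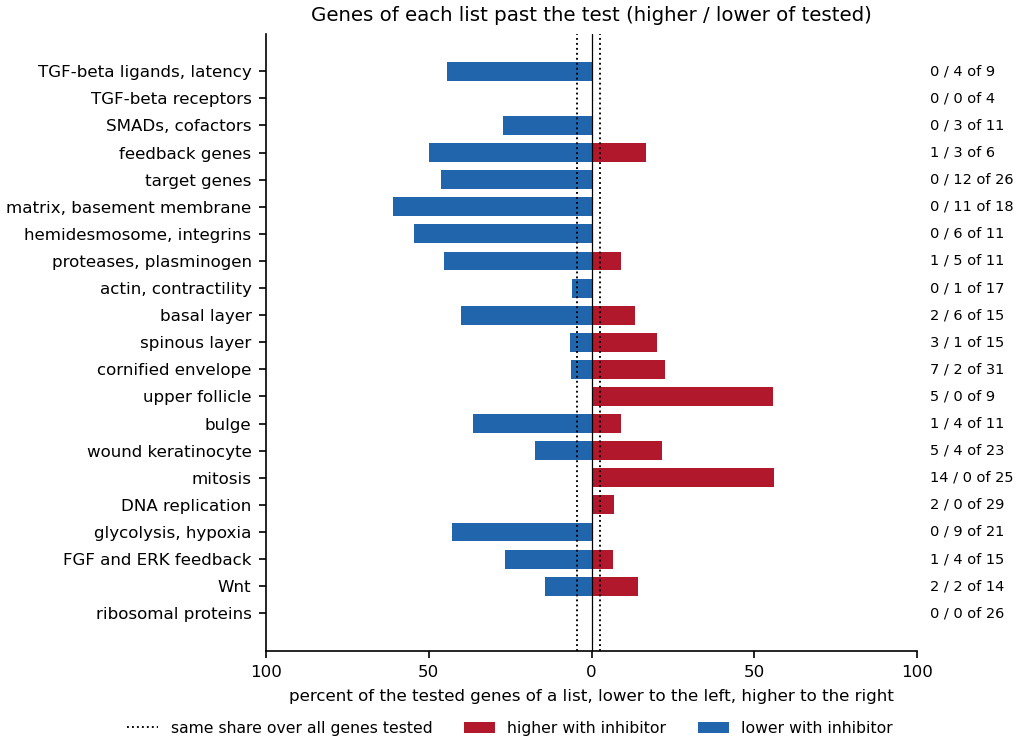
Share of the tested genes of each list that were lower (blue, to the left) or higher (red, to the right) with the inhibitor, with the numbers higher and lower of those tested at the right edge. Dotted lines give the shares over all genes tested, 2.67% higher and 4.49% lower. Matrix, integrin, protease and target lists extend to the left, and mitosis and upper follicle lists to the right.

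The keratinocyte layers did not move as blocks. Krt15 (chr11:100131758-100135928, minus strand), the keratin that marks bulge and basal cells, showed the smallest p of the 8657 genes. It had 187 CPM with forskolin and the inhibitor and 211 CPM with the inhibitor alone, against 3.95, 7.56 and 8.18 CPM with forskolin, Fgf10 and Fgf1. The groups stood far apart, at 199 ± 16.7 CPM (SD, n = 2) against 6.56 ± 2.28 CPM (SD, n = 3), a log2 fold change of 4.95 (SE 0.28, adjusted p = 9.26e-05). Whole follicles of mixed phase had 368 to 945 CPM of Krt15 in 3 libraries. Of the 15 basal genes, all tested, Krt15 and Igfbp3 were higher and Krt14, Itga6, Itgb4, Itgb1, Col17a1 and Thbd were lower, while 7 did not pass. Krt5 had 8949 and 13220 CPM against 10910 to 13620 CPM (log2 fold change -0.14, adjusted p = 0.754), and Ly6a, the gene of the sorting antigen Sca1, had 537 CPM in both inhibitor libraries against 548 to 842 CPM (adjusted p = 0.387). Igfbp3, which binds insulin-like growth factors, had a log2 fold change of 3.30 (adjusted p = 0.0102), and Thbd, thrombomodulin, 1 of -1.10 (adjusted p = 0.0191). Igfbp3 had 62.8 and 21.5 CPM with the inhibitor, against 5.27, 1.51 and 6.14 CPM with forskolin, Fgf10 and Fgf1.

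Genes of the suprabasal layers were higher in part. Krt10 and Krt1, the keratin pair of spinous cells, were higher with log2 fold changes of 2.29 (SE 0.54, adjusted p = 0.0334) and 2.73 (SE 0.55, adjusted p = 0.0193). Krt10 had 1106 CPM with forskolin and the inhibitor and 4000 CPM with the inhibitor alone, against 287, 868 and 408 CPM with forskolin, Fgf10 and Fgf1. Krt1 had 328 and 1692 CPM with the inhibitor, against 101, 203 and 153 CPM without it. The groups did not overlap for either, but the library with the inhibitor alone stood well above the library with forskolin and the inhibitor, and without it the log2 fold changes were 1.10 and 1.11 and neither passed. Neither passed without the Fgf1 library either (adjusted p = 0.165 and 0.108). Krt10 also did not pass without the forskolin library, or in DESeq2 on all 5 libraries. Mt4, a metallothionein of stratified epithelia, had 166 counts in the inhibitor libraries against 5 in the others, a ratio of 27.7 (exact 95% interval 11.6 to 86.3). Hes1, a Notch target of spinous cells, fell by 1.19 on the log2 scale, and 11 of the 15 tested spinous genes did not pass, Krtdap and Dmkn among them (adjusted p = 0.108 and 0.404).

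Of 31 tested genes of the cornified envelope, 7 were higher (22.6%), 2 were lower and 22 did not pass. Lor, loricrin, had 369 CPM with forskolin and the inhibitor and 1700 CPM with the inhibitor alone, against 242, 171 and 170 CPM with forskolin, Fgf10 and Fgf1 (log2 fold change 2.41 with SE 0.49, adjusted p = 0.0202), and without the library with the inhibitor alone the log2 fold change was 0.93 and did not pass. Casp14, the protease of cornification, had 1065 and 1855 CPM against 364 to 520 CPM (log2 fold change 1.67, adjusted p = 0.00737). Cst6, cystatin E/M, had 949 and 910 CPM against 183 to 311 CPM (log2 fold change 1.92 with SE 0.23, adjusted p = 0.00228), with both inhibitor libraries alike. Flg2 and Hrnr, filaggrin-like proteins, and Lce1c and Lce1f, late envelope proteins, were the others that rose, with log2 fold changes of 2.98, 1.70, 1.87 and 2.00. Csta1 and Stfa1, cystatin A-type inhibitors whose close copies could share reads, fell by 1.60 and 1.75. The count of 7 was 16 without the forskolin library, 11 without forskolin plus inhibitor, 4 without Fgf1 or without the inhibitor alone, and 0 in edgeR with the shared spread, where 4 were higher at p under 0.05 before adjustment.

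Genes of the upper follicle were higher in 5 of 9 tested cases (55.6%) and lower in none: Defb6, a beta-defensin, Krt17, a keratin of appendages and wounds, Cst6, Klk10, a kallikrein, and Atp6v1c2, a proton pump subunit. The other 4 tested, Lrig1, Krt79, Plet1 and Sostdc1, did not pass. Krt17 is also in the wound list and Cst6 in the cornified envelope list, so neither is particular to the upper follicle. Defb6 had 93.1 and 89.1 CPM with the inhibitor, against 9.22, 14.4 and 16.4 CPM without it (log2 fold change 2.80 with SE 0.26, adjusted p = 0.000906). Krt17 had 2148 and 2369 CPM, against 1330 CPM with forskolin, 463 CPM with Fgf10 and 575 CPM with Fgf1, and passed narrowly (log2 fold change 1.51 with SE 0.38, adjusted p = 0.0446). It passed without the forskolin library (log2 fold change 2.12) and did not pass without any other library (1.24 to 1.59). Without the Fgf1 library 3 of the 9 were higher, and with the shared spread none passed in edgeR, although 5 were higher at p under 0.05 before adjustment. Bulge genes other than Krt15 were lower where they passed: of 11 tested, Sox9, Runx1 and Tcf7l1, transcription factors of follicle stem cells, and Dkk3, a secreted Dickkopf protein, fell by 1.29, 2.06, 2.52 and 2.67 on the log2 scale. Tcf7l1 had 4.97 and 7.18 CPM with the inhibitor, against 31.6 to 38.9 CPM without it, with 6 bulge genes, Cd34 included, not passing. None of the 3 tested hair shaft and matrix genes and none of the 7 tested sebaceous genes passed, in edgeR or in DESeq2.

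**Figure D4:**
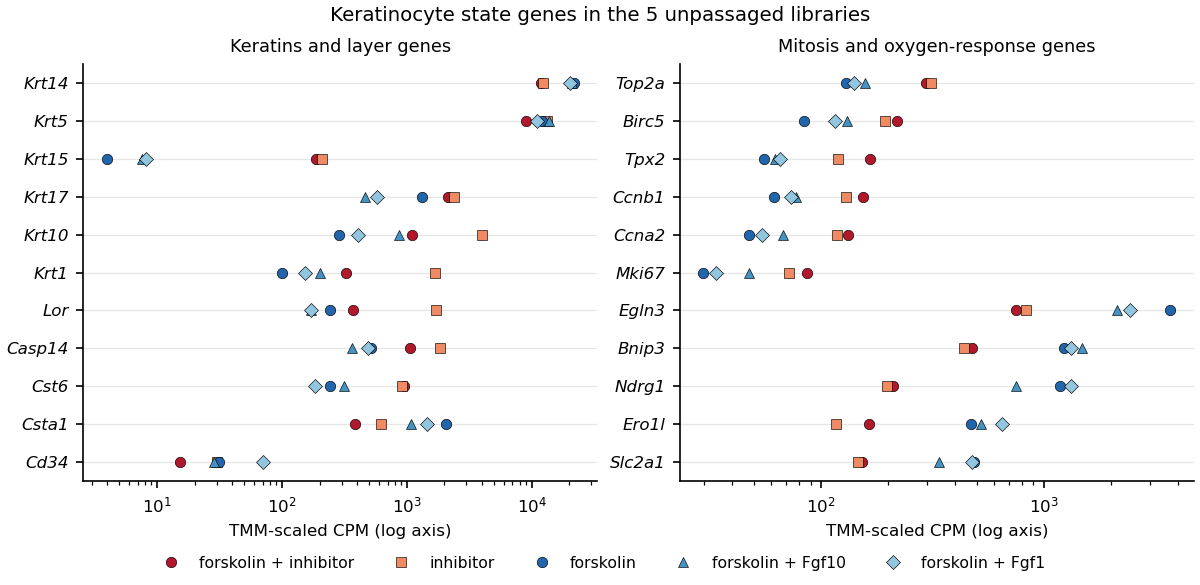
CPM on a log axis of keratin and layer genes (left) and of mitosis and oxygen-response genes (right), 1 point for each of the 5 unpassaged libraries, red and orange with the inhibitor and blue without it. For Krt10, Krt1 and Lor the library with the inhibitor alone stands to the right of all others, whereas Krt15, Top2a and Ndrg1 form 2 separate groups.

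Mitosis genes were higher in 14 of 25 tested cases (56.0%) and lower in none, with a median log2 fold change of 1.01. Top2a, the topoisomerase of dividing cells, had 296 and 312 CPM with the inhibitor, against 129, 157 and 141 CPM with forskolin, Fgf10 and Fgf1 (log2 fold change 1.09 with SE 0.18, adjusted p = 0.00833). Mki67, the proliferation antigen, had 86.7 and 71.8 CPM against 29.7 to 47.6 CPM (log2 fold change 1.10 with SE 0.25, adjusted p = 0.0288). Ccnb1 and Ccna2, mitotic cyclins, and Tpx2, a spindle protein, rose by log2 fold changes of 1.01, 1.15 and 1.23, and Birc5 and Cdca8, of the chromosomal passenger complex, by 0.92 and 0.84. The other higher members were Cdc20, Plk1, Aurka, Kif11, Cenpe, Prc1 and Hmmr. These rises were near 2-fold, and the count depended on which libraries were kept: 3 genes passed without the forskolin plus inhibitor library, 6 without the inhibitor alone and 0 in edgeR without the Fgf1 library, although 18 were higher at p under 0.05 before adjustment in each of these. With the shared spread none passed in edgeR, with 15 higher before adjustment, and DESeq2 on all 5 libraries gave 14. Of 29 tested DNA replication genes, Rrm1, a subunit of ribonucleotide reductase, and Prim1, a primase subunit, were higher (log2 fold changes 0.97 and 1.18) and 27 did not pass, Pcna among them (log2 fold change 0.22). Of 20 cell cycle inhibitor and p53 genes, Gadd45a and Fas were higher and Cdkn1b, Phlda3 and Perp lower. In bulk RNA, more cells of a type and more RNA per cell cannot be told apart.

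Oxygen-response and glycolysis genes were lower in 9 of 21 tested cases (42.9%) and higher in none. Egln3, an oxygen-sensing prolyl hydroxylase, had 756 and 835 CPM with the inhibitor, against 3712, 2137 and 2434 CPM with forskolin, Fgf10 and Fgf1 (log2 fold change -1.80 with SE 0.27, adjusted p = 0.00625). Ndrg1, a hypoxia-induced stress gene, had 210 and 198 CPM against 756 to 1325 CPM (log2 fold change -2.41 with SE 0.27, adjusted p = 0.00179). Bnip3, a mitophagy receptor, Ero1l, an oxidase of protein folding, and Slc2a1, the glucose transporter GLUT1, fell by 1.56, 1.96 and 1.53 on the log2 scale. Vegfa, Car9, P4ha1 and Gpi1 were the other lower members, while 12 genes, mostly enzymes of glycolysis, did not pass. Without the Fgf1 library or without forskolin plus inhibitor 6 were lower. With the shared spread none passed in edgeR, with 6 lower at p under 0.05 before adjustment, and DESeq2 gave 11.

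FGF and ERK feedback genes gave 4 lower (26.7%) and 1 higher (6.67%) of 15 tested, beside 4.49% and 2.67% of all genes tested. Dusp6, an ERK phosphatase, had 62.3 and 65.9 CPM with the inhibitor, against 265 CPM with forskolin, 335 CPM with Fgf10 and 327 CPM with Fgf1 (log2 fold change -2.27 with SE 0.21, adjusted p = 0.000813). The forskolin library, which was given no Fgf, was nearly as high in Dusp6 as the Fgf libraries. Spry2, a receptor kinase antagonist, had 14.5 and 14.8 CPM with the inhibitor, against 23.1 CPM with forskolin, 91.5 CPM with Fgf10 and 92.03 CPM with Fgf1, so its forskolin library lay near the inhibitor libraries. Spry2 passed (log2 fold change -2.21 with SE 0.53, adjusted p = 0.0357), but against forskolin alone its log2 fold change was -0.66 and did not pass. Etv5, an ETS factor, fell by 1.94 on the log2 scale, and against forskolin alone had a log2 fold change of -2.08 that did not pass. Fos fell by 2.45 on the log2 scale and Egr1, also an immediate-early factor, rose by 2.42, with 38.9 and 71.4 CPM against 3.95 to 18.9 CPM.

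Among Wnt genes, Wnt3 and Wnt7b, ligands of epidermal cells, were higher and Wnt5a, a ligand of the non-canonical branch, and Dkk3 were lower, of 14 tested. Wnt7b (chr15:85535437-85582473, minus strand) had 16.7 and 15.2 CPM with the inhibitor, against 0.659, 1.51 and 0 CPM with forskolin, Fgf10 and Fgf1, that is 73 counts against 3 and a ratio of 20.3 (exact 95% interval 6.67 to 101). Wnt5a had 11.3 and 5.49 CPM against 53.7 to 73.1 CPM (log2 fold change -2.98 with SE 0.34, adjusted p = 0.00179). Wnt3 had 80 counts against 1, a ratio of 66.7 (exact 95% interval 11.6 to 2670), with 65 of the 80 in the library with the inhibitor alone, and it did not pass without that library, without Fgf1 or against forskolin alone. Of 10 BMP and Id genes only Id3, a BMP-induced inhibitor of differentiation, passed, with 117 and 200 CPM against 46.1 to 80.8 CPM (log2 fold change 1.26, adjusted p = 0.031). Id1, with a log2 fold change of 0.88 (adjusted p = 0.139), did not.

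Wound and chemokine genes split. The chemokines Ccl20, Cxcl1, Cxcl2 and Cxcl5 rose with Krt17, and the alarmins S100a8 and S100a9, the gap junction gene Gjb2 and Stfa1 fell, of 23 tested. Ccl20 had 77.7 CPM with forskolin and the inhibitor and 258 CPM with the inhibitor alone, against 3.95, 16.6 and 8.18 CPM with forskolin, Fgf10 and Fgf1 (log2 fold change 4.14 with SE 0.58, adjusted p = 0.00474). S100a8 had 650 and 776 CPM against 2593 to 3010 CPM (log2 fold change -1.99 with SE 0.21, adjusted p = 0.00136). Krt6a and Krt6b, keratins of wounded and follicle epithelium, did not pass (adjusted p = 0.512 and 0.111). With the shared spread, 1 wound gene was higher and none lower, 2 basal genes were higher and 1 lower, no spinous gene passed, and 1 bulge gene was higher and 1 lower. In the same fit 1 FGF and ERK feedback gene was lower and none higher, and 1 Wnt gene was higher and 1 lower. Single members of other lists passed. Epgn, an EGF receptor ligand, rose by a log2 fold change of 1.55, Cyp26b1, which degrades retinoic acid, by 2.37, and Slc7a11, the cystine transporter, by 2.38. Dhcr7, an enzyme of cholesterol synthesis, rose by 1.09, and the chaperones Hsp90aa1 and Hspa5 by 1.05 and 0.83. None of 26 ribosomal protein genes, 9 interferon genes or 11 YAP target genes passed in edgeR, whereas DESeq2 gave 4 lower ribosomal protein genes, 1 lower YAP target and no interferon gene. At p under 0.05 before adjustment, DESeq2 gave 16 lower ribosomal protein genes, 1 lower YAP target and 1 higher interferon gene.

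The most changed abundant genes included several outside these lists. Hmga2 (chr10:120361275-120476469, minus strand), an architectural chromatin factor, had 15.8 and 17.3 CPM with the inhibitor, against 499, 290 and 399 CPM with forskolin, Fgf10 and Fgf1 (log2 fold change -4.57 with SE 0.30, adjusted p = 0.000241). Pthlh (chr6:147252101-147264183, minus strand), parathyroid hormone-like hormone, had 9.03 and 4.22 CPM against 336, 147 and 270 CPM (log2 fold change -5.24 with SE 0.46, adjusted p = 0.000813). Cbr2, a carbonyl reductase, had 247 and 387 CPM against 2452 to 4276 CPM (log2 fold change -3.29 with SE 0.34, adjusted p = 0.00136). For all 3 genes the groups did not overlap, which was a condition for naming them here and therefore not a check. Pgf, placental growth factor, and Cited1, a transcription co-activator, were lower, as were Arl4c, a small GTPase, Nedd9, a focal adhesion scaffold, Nav2 and Prr9, with log2 fold changes of -5.43, -4.67, -3.50, -3.22, -3.21 and -3.27. Prl8a9, of the prolactin family, had 1 and 3 counts with the inhibitor, against 337, 42 and 106 counts with forskolin, Fgf10 and Fgf1, a ratio of 145 (exact 95% interval 56.5 to 536). On the higher side stood Faah, which breaks down anandamide, Akr1c18, a steroid dehydrogenase, Serpinb7, also a serpin, Chit1, a chitinase, Lce1m, Crip2 and Stra6, a retinol-binding protein receptor, with log2 fold changes of 3.73, 3.41, 3.31, 3.09, 2.97, 2.61 and 2.39. Faah had 60.1 and 106 CPM with the inhibitor, against 7.91, 6.05 and 4.09 CPM without it.

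Lists of markers of other cell types were summed in each library. Of 15 fibroblast markers only Sparc was tested. The list summed to 21.7 and 37.2 CPM with the inhibitor, against 258, 371 and 455 CPM with forskolin, Fgf10 and Fgf1. Sparc itself made up nearly all of the sum without the inhibitor and most, but not nearly all, of the sum with it. Lum, Pdgfrb and Dpt had 0 counts. The Langerhans and myeloid list summed to 21.7 and 22.0 CPM with the inhibitor, against 65.4 to 98.2 CPM without it. Its H2-Ab1, an MHC class II chain, was lower (12.7 and 11.4 CPM against 57.4 to 78.4 CPM, log2 fold change -2.46, adjusted p = 0.00149), while H2-Aa, Cd207, Ptprc and Tyrobp had 0 counts in all 5 libraries. The Merkel and neural list summed to 9.94 and 15.6 CPM with the inhibitor, against 5.29 to 18.4 CPM without it, and its Krt18 did not pass (log2 fold change 0.89, adjusted p = 0.341). Melanocyte, T cell, endothelial and blood lists summed to at most 7.91 CPM in any library.

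Forskolin differed between the 2 inhibitor libraries, with 1 library each and therefore no test. Of 8657 genes, 29 (0.335%) differed more than 4-fold. Tslp, an epithelial cytokine, had 334 CPM with forskolin and the inhibitor, against 2002 CPM with the inhibitor alone. Krt1 and Lor were also more than 4-fold lower with forskolin, and Sprr2f and Sprr2g, small proline-rich envelope genes whose close copies could share reads, were higher, at 1258 and 530 CPM with forskolin and the inhibitor, against 98.4 and 92.9 CPM with the inhibitor alone. Sprr2f had 4312 CPM with forskolin without the inhibitor, and 344 and 1478 CPM with forskolin plus Fgf10 and plus Fgf1. Dusp1, an immediate-early phosphatase, had 46.1 CPM with forskolin and the inhibitor and 7.18 CPM with the inhibitor alone.

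The same question was asked of 10 other libraries, of early organoids within 3 months of culture at passages 7 to 12, which share no library with the unpassaged ones. Of these, 6 had the inhibitor (4 with forskolin, 2 without) and 4 had forskolin with Fgf10 (3) or Fgf1 (1), so that all early libraries without the inhibitor were given an Fgf. Of 8294 genes, 88 passed (1.06%), 39 higher (0.47%) and 49 lower (0.591%). Of the 231 genes higher in unpassaged organoids, 219 were tested in early ones, 188 of these were above 0 (85.8%, beside 52.6% of all genes tested in both), and 13 passed there as well, 5.63% of the unpassaged and 33.3% of the early higher genes. Of the 389 lower genes, 307 were tested, 245 were below 0 (79.8%, beside 47.4%), and 32 passed, 8.23% of the unpassaged and 65.3% of the early lower genes. The median log2 fold change of the higher genes was 1.28 in unpassaged organoids and 0.36 in early ones, and that of the lower genes was -1.35 in unpassaged organoids and -0.40 in early ones. These genes were chosen by passing in the unpassaged libraries, which enlarges their unpassaged medians even where the effects are equal. The medians therefore do not measure a change between stages.

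Sparc had 3.30, 6.24 and 10.3 CPM as lowest, median and highest of the 6 early libraries with the inhibitor, against 29.1, 123 and 275 CPM in the 4 without it, and the early log2 fold change was -4.43 (SE 0.57, adjusted p = 0.00282). Tgfbi had 12.6, 17.7 and 30.4 CPM against 43.5, 80.4 and 106 CPM (log2 fold change -2.04 with SE 0.28, adjusted p = 0.00389), and Pmepa1 had 5.78, 16.5 and 30.4 CPM against 53.0, 116 and 174 CPM (log2 fold change -2.72 with SE 0.43, adjusted p = 0.00947). For all 3 genes the early groups did not overlap. Arl4c, Nedd9, Nav2, Prr9, Pthlh, Jag1 and Krt14 were lower in both stages, and Ccl20, Crip2, Krt17 and Id3 were higher in both. Krt15 had 76.5, 216 and 409 CPM with the inhibitor, against 11.7, 67.7 and 217 CPM in early organoids without it, with overlap, and did not pass there (log2 fold change 1.29 with SE 0.61, adjusted p = 0.599). Of the groups described above, none of the 24 mitosis, 20 glycolysis and hypoxia or 10 hemidesmosome and integrin genes tested in early organoids passed in edgeR, and 2 of 12 matrix and 3 of 20 target genes were lower. Over all genes tested in early organoids, 1.06% passed and 0.591% were lower.

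**Figure D5:**
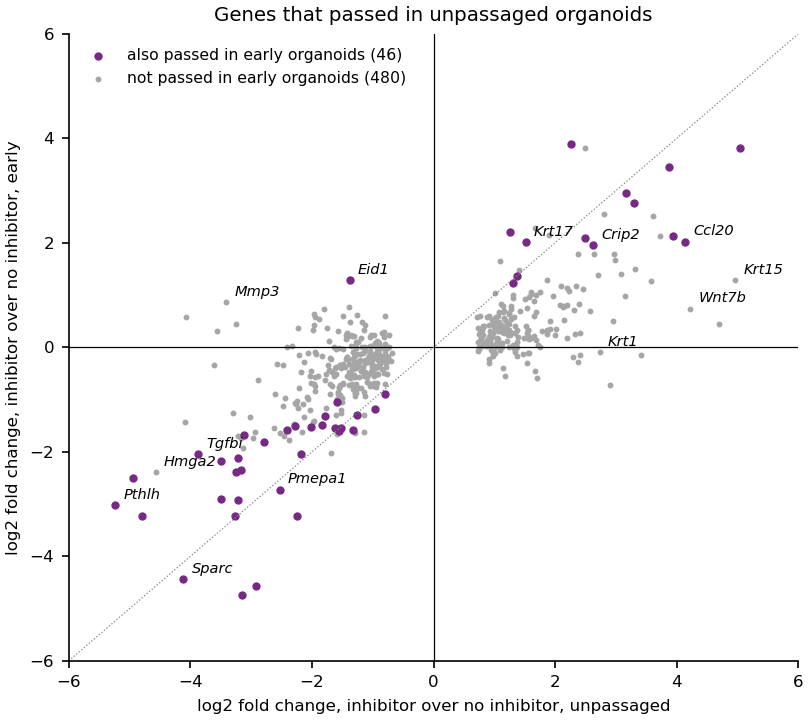
Log2 fold change with the inhibitor in early organoids (vertical) against that in unpassaged organoids (horizontal) for the 526 genes that passed in unpassaged organoids and were tested in both, 1 point a gene; the dotted line marks equal change. Purple points also passed in early organoids, Sparc and Pmepa1 lie near the line, and Mmp3 and Eid1 lie in the opposite quadrant.

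A failure to pass in early organoids does not show a difference, so the difference of the inhibitor effects was tested in a model of all 15 libraries. Of 9426 genes, 7 passed (0.0743%): 1 had a higher effect in unpassaged organoids (0.0106%) and 6 a lower one (0.0637%). Wnt7b had 13.2, 18.6 and 24.0 CPM in early organoids with the inhibitor, against 10.1, 11.3 and 11.6 CPM in early organoids without it, where its unpassaged libraries were near 0. Its effect was 3.49 log2 units larger in unpassaged organoids (SE 0.57, edgeR adjusted p = 0.037). Mmp3 had 3.69, 11.1 and 31.8 CPM with the inhibitor in early organoids, against 4.00, 5.01 and 12.5 CPM without it, and did not pass there (log2 fold change 0.86, adjusted p = 0.721, difference -4.24, SE 0.70, adjusted p = 0.037). Naprt, an enzyme of NAD synthesis, and Irx1, a homeobox factor, rose in early organoids, by log2 fold changes of 3.11 and 2.91, and did not pass in unpassaged ones (-0.19 and -1.21). Eid1, which encodes a protein that binds and inhibits EP300, was lower in unpassaged organoids (66.0 and 82.8 CPM with the inhibitor, against 140 to 223 CPM) and higher in early ones (log2 fold changes -1.38 and 1.28, adjusted p = 0.0132 and 0.0479). Apoe, the lipid carrier, had 484, 555 and 1136 CPM with the inhibitor in early organoids, against 24.2, 29.9 and 81.5 CPM without it, and 691 and 1150 CPM with the inhibitor in unpassaged organoids, against 451 to 1363 CPM. Prl8a9 was at or below 10.6 CPM in all 10 early libraries. Left out singly, the forskolin plus inhibitor, the inhibitor or the Fgf1 library of unpassaged organoids brought the count of 7 to 0 in edgeR, with 507, 542 and 558 genes at p under 0.05 before adjustment. Without forskolin it was 3 and without Fgf10 it was 1, and DESeq2 on all 15 libraries gave 32. For Tgfbi, Pmepa1, Sparc, Krt15 and Itga6 the difference did not pass (adjusted p = 0.293, 0.969, 0.955, 0.36 and 0.281).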

How the data were processed

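RNA of skin organoids was measured by CEL-seq2 with 75-base paired reads, per the labels' protocols. The titles say bulk cells, whereas the extract protocol in the labels says that cells were sorted into Trizol. Which of these holds is not settled by the labels. The deposited values are raw counts per gene, and BWA 0.6.2-r126 and the mm10 build are named per the submitters' processing notes. Which annotation and counter were used, and whether molecular identifiers were counted, is not given in the sources used here. A gene that a file does not list was taken as 0, and ERCC spike-in names, with 1 to 6 counts a library, were left out.

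Genes were kept by edgeR's filter (minimum count 10, minimum total 15), scaled by TMM and tested by edgeR 4.0.16 quasi-likelihood fits in R 4.3.3 with Benjamini-Hochberg adjustment, 1 fit for the 5 unpassaged libraries, 1 for the 10 early ones and 1 for the difference of effects over 15. DESeq2 1.42.0 was an alternative. The scripts were tested on simulated data. Intervals are exact 95% intervals of count ratios and cover counting error only. Coordinates are from GENCODE M21 (GRCm38).

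The members and gene lists were chosen with earlier results of these data known. Genes named are up to 15 abundant genes with the largest changes each way whose groups do not overlap, up to 6 genes of each list described, a fixed set of markers and pathway genes, and up to 5 genes each way of the difference of effects. Other genes are named to complete a count of a list or were chosen after their values were seen. Some genes are not reported here.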

Additional observations from a re-analysis of the deposited data

Results flagged for a closer look

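The effect of the inhibitor differed between unpassaged and early organoids for 7 genes by the test of the difference itself (edgeR, adjusted p under 0.05). The difference, in log2 units of unpassaged minus early effect, was 3.49 for Wnt7b, -8.49 for Prl8a9, -4.24 for Mmp3, -4.11 for Irx1, -3.95 for Apoe, -3.29 for Naprt and -2.65 for Eid1. Unpassaged and early organoids also differ in passage and time in culture, and the early libraries without the inhibitor were all given an Fgf, so these cannot be told apart.

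In 3 of 22 groups examined, 1 library stood apart from the others of its group by Dixon's criterion, which by design also marks some groups by chance. Mmp3 had 31.8 CPM and Prl8a9 10.6 CPM in replicate 1 of early organoids with forskolin and the inhibitor. Both values come from the same library, which held 734041 counts, the fewest of the early libraries. Apoe had 81.5 CPM in replicate 4 of early organoids with Fgf10.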

How the results depend on the processing

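The count of 620 genes in unpassaged organoids was 622 with DESeq2's size factors, 626 with upper quartile scaling, 653 with DESeq2, 511 at equal depth, 482 against forskolin alone, 1373 with no filter on low counts and 118 with a spread shared with the early libraries. With 1 library left out it ranged from 147 to 690, and the share of higher genes was 27.2% without Fgf1, 26.3% with the shared spread and 44.7% with no filter, against 37.3%. The early count of 88 was 152 with no filter, 172 with DESeq2, 151 with all 12 early libraries and 45 to 87 with 1 library left out. The count of 7 differences was 13 with no filter, 32 with DESeq2, and 0 to 3 with 1 unpassaged library left out. Of 132 named genes that passed, all kept their sign and 27 passed under all 12 alternatives. Every alternative reused the unpassaged libraries in which these genes had passed, and some of the genes were chosen for no overlap between groups. The kept signs were therefore largely fixed in advance and are not a check. Some named genes that did not pass in the main fit passed in alternatives. Cd34, Smad7 and Tgfbr1 did so in 1 of 12, Cdkn1a, Id1 and Krtdap in 2, and Irx1 and Krt6b in 3. Conversely, Krt10, Klk10, Skil, Ltbp4 and Aurka passed in edgeR but not in DESeq2. In some alternatives a group held 1 library. With 1 library left out, log2 fold changes spanned -1.04 to 0.25 for Tgfbr3, -0.11 to 0.58 for Acvr2a, -0.44 to 0.12 for Krt5, -0.36 to 0.49 for Apoe and -0.52 to 0.09 for Naprt. None of these genes passed, and they and Tgfbr2 changed sign: Tgfbr2 (0.15 against forskolin alone), Tgfbr3 (0.25 without the inhibitor alone, 0.13 at equal depth), Acvr2a (-0.11 without the inhibitor alone), Krt5 (0.12 without forskolin plus inhibitor), Apoe (-0.36 without the inhibitor alone, -0.28 without forskolin) and Naprt (0.09 without forskolin plus inhibitor). The cause was not tested. Early libraries with the same replicate number did not deviate together (r -0.16 to 0.36 over 6 pairs), and a replicate block gave 30 early genes and 6 differences, 3 of them among the 7. No paired analysis was possible for unpassaged organoids because every library is replicate 1 of its own medium. Depth limits genes near 0 counts most, and the Fgf1 library is the shallowest of the unpassaged libraries.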
